A study of Rattus norvegicus with 9 samples.

Results

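The core of transforming growth factor beta (TGF-beta) signalling was followed in the left ventricle of Sprague-Dawley rats through 10 genes, taken by name from 22608 genes measured. They were the 3 ligand genes Tgfb1, Tgfb2 and Tgfb3, the 3 receptor genes Tgfbr1, Tgfbr2 and Tgfbr3, and 4 genes of the SMAD family, Smad2, Smad3, Smad4 and Smad7. All 10 were found in the tables, as 19 of the 55767 transcripts listed, and all 10 and all 19 transcripts passed the filter on low values. RNA was sequenced from 3 groups of 3 libraries: rats given saline, rats given angiotensin II (Ang II), and rats given Ang II with sodium butyrate (NaBu). All 3 groups share the strain, the tissue, an age of 8 weeks at the start and a course of 28 days, and the labels give no dose and no route. Ang II is the effector hormone of the renin-angiotensin system, and its infusion is a common rodent model of hypertension with cardiac fibrosis. NaBu delivers butyrate, a product of gut bacteria known to inhibit histone deacetylases. The labels leave unsaid whether each library stands for a different rat, and every p-value here covers only the variation among these libraries, part of which can be technical.

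TGF-beta is secreted in a latent form bound to matrix proteins and is released by integrins and proteases. The active ligand joins the type II receptor to the type I receptor, which phosphorylates SMAD2 and SMAD3, and these enter the nucleus with SMAD4 to act on transcription. SMAD7 is itself induced by the pathway and blocks the type I receptor. In the heart the pathway is known for turning fibroblasts into myofibroblasts and for raising collagen and matrix genes. The work is on transcripts only, so neither latent and active ligand nor SMAD phosphorylation was measured.

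Library totals ran from 29284780 to 49865446 estimated counts, and ribosomal RNA took 7.99% to 18.81% of them. The correlation across genes within a group was lowest in saline (r from 0.963 to 0.976) and higher in Ang II (0.980 to 0.984) and in NaBu with Ang II (0.984 to 0.986). Ventricular muscle markers gave 121400 to 177100 CPM (the usual library-size-scaled count unit, after TMM scaling) in every library, the most abundant marker set in all 9. Saline library 2 stood apart: its 9 atrial markers summed to 5392 CPM against 111 to 339 CPM elsewhere, all 9 of them highest there, and its ventricular sum was the lowest at 121400 CPM. The same library had the highest fibroblast sum, at 1221 CPM against 703 to 1003 CPM elsewhere. The sums of macrophage markers (342.7 CPM against 209.5 to 282.2 CPM elsewhere) and epicardial markers (68.8 CPM against 24.5 to 58.2 CPM) were highest there too. So were those of smooth muscle and lymphocyte markers, by less. Saline library 2 was also the highest of the 9 libraries for 6 of the 10 TGF-beta genes. Saline library 3 was second highest for the atrial markers Nppa, Myl7, Myl4, Sln and Stard10, at 186, 27.2, 17.25, 4.01 and 12.5 CPM. It was not second highest for Dkk3, Tbx5, Nr2f1 and Nr2f2. Outside these saline libraries Myl7 reached at most 3.98 CPM and Myl4 5.03 CPM, both in NaBu library 4. In bulk tissue, a lower share of cells that make a transcript and less of the transcript per cell cannot be told apart.

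No TGF-beta gene passed the test in any comparison. With edgeR's quasi-likelihood test and Benjamini-Hochberg adjustment over 15467 genes, 0 of 10 members were called between Ang II and saline, where 0.00% of all genes were called. Likewise 0 of 10 were called between NaBu with Ang II and Ang II alone, where 1.60% of all genes were called. Against saline, NaBu with Ang II also had 0 of 10 called, and 5.06% of all genes. These 3 comparisons share libraries in pairs, so their results are set side by side and not counted as independent. At an unadjusted p under 0.05, 3, 1 and 1 members passed, against 5.94%, 22.4% and 24.6% of all genes. DESeq2 called 0, 0 and 1 members, where it called 57, 1515 and 1990 of all genes. The members that came nearest were Tgfb2, Smad7 and Tgfbr1.

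**Figure D1:**
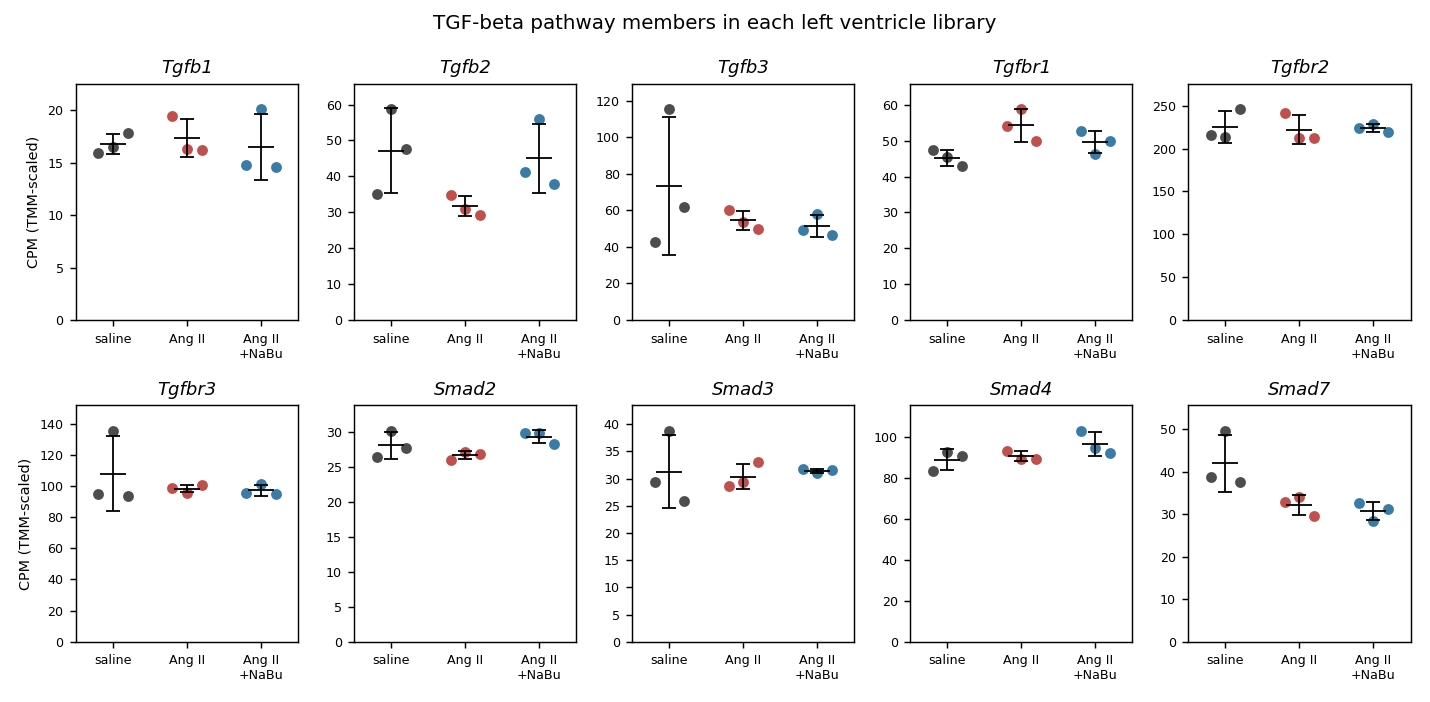
Level of each of the 10 TGF-beta genes in TMM-scaled CPM (vertical axis, starting at 0), with 1 point per library, the group mean as a horizontal mark and the SD as bars, n = 3. Tgfb2 lies lower in all 3 Ang II libraries, at 29.3 to 34.8 CPM, than in the saline and NaBu groups, and the wide saline bars of Tgfb3 and Tgfbr3 come from saline library 2 at 115.5 and 135.5 CPM.

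Among the 10 genes, Tgfb2 had the largest difference between Ang II and each of the other groups. Tgfb2 encodes the isoform best known for its role in heart valve and septum formation. Its level was 35.1, 58.8 and 47.5 CPM in saline libraries 1, 2 and 3, 34.8, 31.0 and 29.3 CPM in Ang II libraries 1, 2 and 3, and 41.1, 56.0 and 37.8 CPM in NaBu libraries 2, 4 and 6. Every Ang II library was below every saline and every NaBu library, although saline library 1 lay only just above Ang II library 1. The group means were 47.1 ± 11.8 CPM in saline, 31.7 ± 2.80 CPM in Ang II and 45.0 ± 9.70 CPM in NaBu with Ang II (SD, n = 3 each). On the log2 scale the difference was -0.57 between Ang II and saline (SE 0.195, 95% interval -1.01 to -0.14, adjusted p = 0.743) and 0.50 between NaBu with Ang II and Ang II (SE 0.195, interval 0.07 to 0.94, adjusted p = 0.169). Against saline, NaBu with Ang II gave -0.07 (interval -0.50 to 0.36), and 0.14 without saline library 2. Leaving out saline library 2 moved the first difference to -0.38, and leaving out saline library 1 moved it to -0.74. Leaving out NaBu library 4 moved the second to 0.32. None of these passed the adjusted threshold, and the smallest adjusted p of Tgfb2 with any library left out was 0.0738.

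Tgfb1, the isoform most often studied in cardiac fibrosis, stayed within a narrow range. It was at 15.9, 16.5 and 17.8 CPM in saline, at 19.5, 16.3 and 16.2 CPM in Ang II, and at 14.8, 20.1 and 14.6 CPM in NaBu with Ang II. The groups overlapped in all 3 comparisons, and the highest value was NaBu library 4. The log2 difference between Ang II and saline was 0.05 (95% interval -0.28 to 0.38), which as a fold runs from 0.824 to 1.301.

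Tgfb3 varied more between libraries than any other member. Its saline levels were 42.9, 115.5 and 61.7 CPM, its Ang II levels 60.2, 53.4 and 49.8 CPM, and its NaBu levels 49.3, 58.0 and 46.4 CPM. Saline libraries 1 and 2 were the lowest and the highest of all 9, so both treated groups lay inside the saline range. The log2 difference from saline was -0.43 for Ang II (SE 0.287, adjusted p = 0.927) and -0.52 for NaBu with Ang II (SE 0.287, adjusted p = 0.296). Without saline library 2, which held the most atrial transcripts, the first turned to 0.056 and the second went to -0.013. The part of those transcripts in the Tgfb3 level was not tested.

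The promoters of the members whose Ang II and saline libraries did not overlap are printed here, as the genes that came nearest to a difference, although none passed the test. The windows are RefSeq's, on the rat build GRCr8, and each run gives the 250 bases before the annotated start, 5′ to 3′ on the gene's strand. Tgfb2 is on the minus strand at chr13:100792686-100792935, Tgfbr1 on the plus strand at chr5:66449148-66449397 and Smad7 on the plus strand at chr18:71263258-71263507. Capitals mark the E-box CACGTG and the GC box GGGCGG or its reverse complement CCGCCC.
Tgfb2: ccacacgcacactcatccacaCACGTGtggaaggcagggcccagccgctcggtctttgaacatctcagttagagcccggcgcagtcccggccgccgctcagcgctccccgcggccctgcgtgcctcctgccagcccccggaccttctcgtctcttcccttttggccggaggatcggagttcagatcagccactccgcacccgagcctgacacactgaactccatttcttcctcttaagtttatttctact
Tgfbr1: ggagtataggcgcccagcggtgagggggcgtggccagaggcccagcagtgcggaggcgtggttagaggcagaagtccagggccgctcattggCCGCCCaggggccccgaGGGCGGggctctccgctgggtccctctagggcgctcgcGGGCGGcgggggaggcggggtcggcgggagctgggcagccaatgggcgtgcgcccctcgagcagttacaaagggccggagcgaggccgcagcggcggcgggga
Smad7: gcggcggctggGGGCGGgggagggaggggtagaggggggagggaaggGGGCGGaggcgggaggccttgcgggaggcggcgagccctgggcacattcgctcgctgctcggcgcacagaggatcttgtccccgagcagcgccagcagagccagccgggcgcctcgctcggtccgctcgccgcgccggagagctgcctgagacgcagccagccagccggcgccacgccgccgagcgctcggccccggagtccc

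These windows, extended by 50 bases past the start to 300 bases, were searched on both strands for all 10 members, which have 11 annotated starts because Smad2 has 2. The GC box was present in 7 of 11 windows and in 33.1% of all 33469 rat windows of that length, with 3 matches at Tgfbr1 and 2 at Smad7. The 2 windows of Smad2 overlap, and both GC boxes of the first window also lie in the second, so they count in each. Tgfb2 had the E-box once, 229 bases before its start, and no GC box, and 6.42% of all windows held that E-box. The CCAAT box was in 5 of 11 (37.5% of all), the TATA box TATAAA in 1 of 11, at Smad4 (14.2% of all), and the AP-1 site TGACTCA in 0 of 11 (4.63% of all). The short SMAD box CAGAC was in 0 of 11, against 50.1% of all windows, and the palindrome GTCTAGAC in 0 of 11, against 0.197%. The windows of Smad2, Smad7 and Tgfbr1 were rich in G and C, at 80% and 82.7%, 77.7% and 74.7%, while Smad4 had 31.7%, and the median of all windows was 51.7%. The 3 printed genes therefore share no motif among those searched: Tgfbr1 and Smad7 share the GC box and Tgfb2 lacks it. A match to these letters is a description of the sequence and not evidence of binding.

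Among the receptors, Tgfbr1 came nearest to a difference. Tgfbr1 encodes the type I receptor kinase that phosphorylates SMAD2 and SMAD3. It was at 47.4, 45.4 and 42.8 CPM in saline, at 54.1, 58.8 and 49.8 CPM in Ang II, and at 52.6, 46.4 and 49.96 CPM in NaBu with Ang II. All 3 Ang II libraries were above all 3 saline libraries, and the NaBu libraries overlapped both groups. The mean was 45.2 ± 2.29 CPM in saline and 54.3 ± 4.51 CPM in Ang II (SD, n = 3 each), a log2 difference of 0.26 (SE 0.0965, 95% interval 0.05 to 0.48, adjusted p = 0.751). With each library left out in turn the difference stayed between 0.21 and 0.33. NaBu with Ang II lay between the other groups, at -0.13 against Ang II (interval -0.34 to 0.09) and 0.13 against saline (interval -0.08 to 0.35).

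Tgfbr2, which encodes the type II receptor that binds the ligand first, was level across the study. It was at 216, 214 and 246 CPM in saline, at 242, 213 and 212 CPM in Ang II, and at 224, 229 and 219 CPM in NaBu with Ang II. The groups overlapped throughout, and the 3 log2 differences were -0.02, 0.01 and -0.01, whose sign depended on the scaling of the libraries. Their 95% intervals ran from -0.24 at the lowest to 0.23 at the highest, which as folds is 0.847 to 1.174. Tgfbr3 encodes betaglycan, a co-receptor that presents TGF-beta2 to the type II receptor. It was at 94.6, 135.5 and 93.3 CPM in saline, at 98.9, 95.7 and 100.6 CPM in Ang II, and at 95.6, 101.2 and 94.98 CPM in NaBu with Ang II. Saline library 2 was the highest and the other 8 libraries lay between 93.3 and 101.2 CPM. The log2 difference of Ang II from saline was -0.13 (interval -0.44 to 0.17, adjusted p = 0.962), and without saline library 2 it was 0.063.

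Smad7, the inhibitory SMAD, was lower in both Ang II groups than in saline. It was at 38.8, 49.7 and 37.6 CPM in saline, at 32.8, 34.1 and 29.6 CPM in Ang II, and at 32.8, 28.4 and 31.2 CPM in NaBu with Ang II. All 6 libraries from Ang II-treated rats, with or without NaBu, were below all 3 saline libraries, while the treated groups overlapped each other. The means were 42.0 ± 6.67, 32.2 ± 2.29 and 30.8 ± 2.21 CPM (SD, n = 3 each). Against saline the log2 difference was -0.39 for Ang II (SE 0.124, 95% interval -0.66 to -0.11, adjusted p = 0.743) and -0.45 for NaBu with Ang II (SE 0.124, interval -0.73 to -0.17, adjusted p = 0.0629). NaBu with Ang II differed from Ang II by -0.06 (interval -0.34 to 0.21). Of all members Smad7 was nearest to the threshold, at rank 1103 of 15467 genes by p for NaBu with Ang II against saline, and DESeq2 called it there (-0.43, adjusted p = 0.0245). So did edgeR without saline library 3 (-0.52, adjusted p = 0.0421). Over all genes these 2 fits called 1990 and 1303, beside 782 in the main edgeR fit. Without saline library 2, where Smad7 was highest and atrial markers stood out, the 2 differences from saline were -0.25 and -0.30.

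Of the SMADs that carry the signal, Smad2 and Smad4 varied little between libraries and Smad3 more. Smad2 and Smad3 encode the SMADs phosphorylated by the type I receptor, and Smad4 encodes their common partner. Smad2 was at 26.4, 30.2 and 27.8 CPM in saline, at 26.0, 27.2 and 26.8 CPM in Ang II, and at 30.0, 29.9 and 28.3 CPM in NaBu with Ang II. All 3 NaBu libraries were above all 3 Ang II libraries, by a log2 difference of 0.14 (SE 0.0905, 95% interval -0.06 to 0.34, adjusted p = 0.401). Smad3 was at 29.3, 38.8 and 25.8 CPM in saline, at 28.7, 29.4 and 33.1 CPM in Ang II, and at 31.7, 31.0 and 31.6 CPM in NaBu with Ang II. Here saline held both the lowest and the highest library, and the 3 NaBu libraries differed by less than 1 CPM. Smad4 was at 83.2, 92.6 and 90.8 CPM in saline, at 93.3, 89.1 and 89.1 CPM in Ang II, and at 103, 94.5 and 92.2 CPM in NaBu with Ang II, and its groups overlapped in all 3 comparisons. Its log2 differences were 0.03 for Ang II against saline (interval -0.17 to 0.22) and 0.12 for NaBu with Ang II against saline (interval -0.08 to 0.31). Without saline library 2, Smad2 and Smad3 differed between Ang II and saline by -0.025 and 0.14. The fitted spread of Smad4 between libraries within groups was smaller than that of all but 1.80% of the genes, and Smad2 and Tgfbr1 were likewise among the least variable genes, at 4.07% and 5.35%.

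Counted over the 10 members, the groups did not overlap for 3 genes between Ang II and saline (Tgfb2 and Smad7 lower, Tgfbr1 higher), against 9.90% of all genes. Between NaBu with Ang II and Ang II this held for 2, Tgfb2 and Smad2, both higher, against 35.6% of all genes. For NaBu with Ang II and saline it held for Smad7 alone, against 28.6% of all genes. The median log2 difference of the members was -0.06, -0.00 and -0.01 in the 3 comparisons, beside -0.00, -0.02 and -0.05 over all genes. The members as a group were thus near the middle of all genes, and 3, 5 and 4 of the 10 had a difference above 0, where 49.0%, 47.3% and 44.7% of all genes did.

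**Figure D2:**
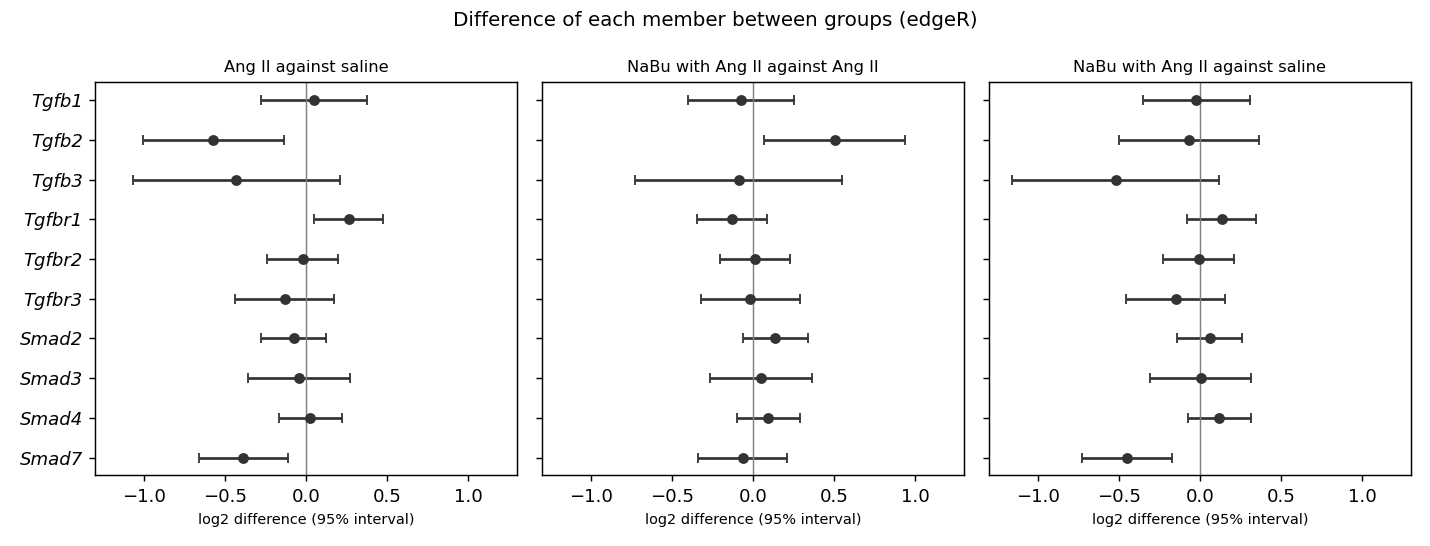
Log2 difference of each TGF-beta gene in the 3 comparisons from edgeR (points), with 95% intervals as bars and a grey line at 0. The intervals of Tgfb2, Tgfbr1 and Smad7 lie off 0 for Ang II against saline, that of Tgfb2 for NaBu with Ang II against Ang II, and that of Smad7 for NaBu with Ang II against saline, and none passed after adjustment over 15467 genes.

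Ratios between members of 1 role were taken within each library, where the depth and scaling of the library cancel. The log2 ratio of Tgfb2 to Tgfb1 was 1.14, 1.83 and 1.42 in saline, 0.84, 0.93 and 0.86 in Ang II, and 1.48, 1.48 and 1.37 in NaBu with Ang II. The Ang II libraries were tightly grouped below all 6 others. The difference was -0.59 between Ang II and saline and 0.57 between NaBu with Ang II and Ang II, each with an exact two-sided permutation p = 0.1, the smallest that 3 libraries against 3 allow, and 0.3 after adjustment over 15 ratio tests. NaBu with Ang II and saline differed by -0.02 (exact permutation p = 0.9). The ratio of Tgfbr1 to Tgfbr2 was higher in all Ang II than in all saline libraries, by 0.28 on the log2 scale (exact permutation p = 0.1, adjusted 0.3). The ratio of Smad7 to Smad3 was lower than in every saline library in all 6 libraries of the Ang II and NaBu groups, by -0.35 and -0.47 on the log2 scale (exact permutation p = 0.1 each, adjusted 0.3). Tgfb3 to Tgfb1 and Smad2 to Smad3 overlapped between all groups, with exact permutation p-values from 0.3 to 1.

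**Figure D3:**
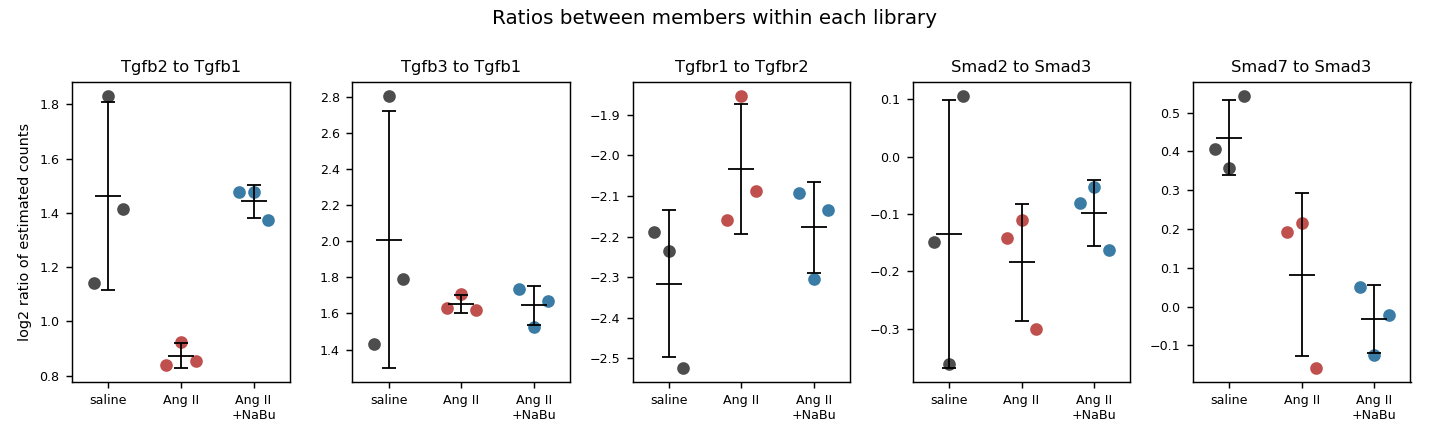
Log2 ratio of the estimated counts of 2 members within a library (vertical axis, not starting at 0 and different in each panel), with 1 point per library, the group mean and SD bars, n = 3. The Ang II libraries lie at 0.84 to 0.93 for Tgfb2 to Tgfb1, below all saline and NaBu libraries, and the saline libraries lie above all others for Smad7 to Smad3.

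The tables list several transcripts for 7 of the members, and for some of these the split moved far more than the gene sum. Smad2 was the clearest case. Its sum had a coefficient of variation of 5.73% over the 9 libraries, beside a median of 18.9% over all genes, while its 4 transcripts had 97.2% to 132%. Transcript NM_001277450.1 took from 0% of the Smad2 counts in 4 libraries to 95.2% in Ang II library 3, and NM_019191.2 took from 0% in 2 libraries to 94.1% in saline library 2. Libraries of 1 group were split in opposite ways: in saline, NM_019191.2 led in libraries 1 and 2 and was at 0 in library 3. How reads were divided between near-identical transcripts is not given, so a shift in the RNA and a shift in that division cannot be told apart.

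Tgfbr1 also varied less in its sum than in its transcripts, with a coefficient of variation of 9.90% for the sum and 54.1% and 61.1% for its 2 transcripts. XM_006238030.3 took 14.4% to 50% of Tgfbr1 in saline, 84.0%, 18.9% and 85.4% in Ang II, and 52.5% to 74.0% in NaBu with Ang II. Between NaBu with Ang II and saline neither Tgfbr1 transcript passed the edgeR test (adjusted p = 0.534 and 0.792). The 2 transcripts of Tgfb3 also traded places, XM_006240366.1 taking 16.7% to 74.8%. The second transcripts of Tgfb2 (NM_031131.1), Smad3 (XM_008766216.2) and Smad7 (XM_006254959.3) took 0.606% to 39.0%, 0.617% to 39.9% and 0.0917% to 27.5%. The leading transcripts of Tgfb2 and Smad7 varied about as much as their sums (28.6% against 25.7%, and 18.5% for both). Taken alone, however, they overlapped between the groups that the sums kept apart. Tgfb2 XM_006250448.3 was at 34.3 CPM in Ang II library 1, above saline library 1 (26.5 CPM) and NaBu library 2 (33.4 CPM). Smad7 NM_030858.1 was at 27.7 CPM in saline library 3, below Ang II library 1 (32.5 CPM) and NaBu library 2 (31.2 CPM). In Tgfbr2 a single transcript held 98.3% of the counts, with a range of 97.1% to 98.9%, and Tgfb1, Tgfbr3 and Smad4 have only 1 in the tables. With edgeR on the transcript table, 0 of 19 member transcripts were called in each comparison, against 0.0125%, 0.0157% and 0.0689% of the 31914 transcripts tested. At an unadjusted p under 0.05, where 4.24%, 9.41% and 10.5% of all transcripts passed, Smad2 XM_006254946.3 was higher in Ang II than in saline (log2 difference 2.54, SE 0.976) and lower in NaBu with Ang II than in Ang II (-2.81, SE 0.987, adjusted p = 0.453), and Tgfb3 NM_013174.2 was lower in NaBu with Ang II than in saline (-1.22, SE 0.456, adjusted p = 0.417). DESeq2 called the second of these (adjusted p = 0.0498). In Ang II library 3 that Smad2 transcript was as low as in the NaBu libraries, so the groups overlapped.

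**Figure D4:**
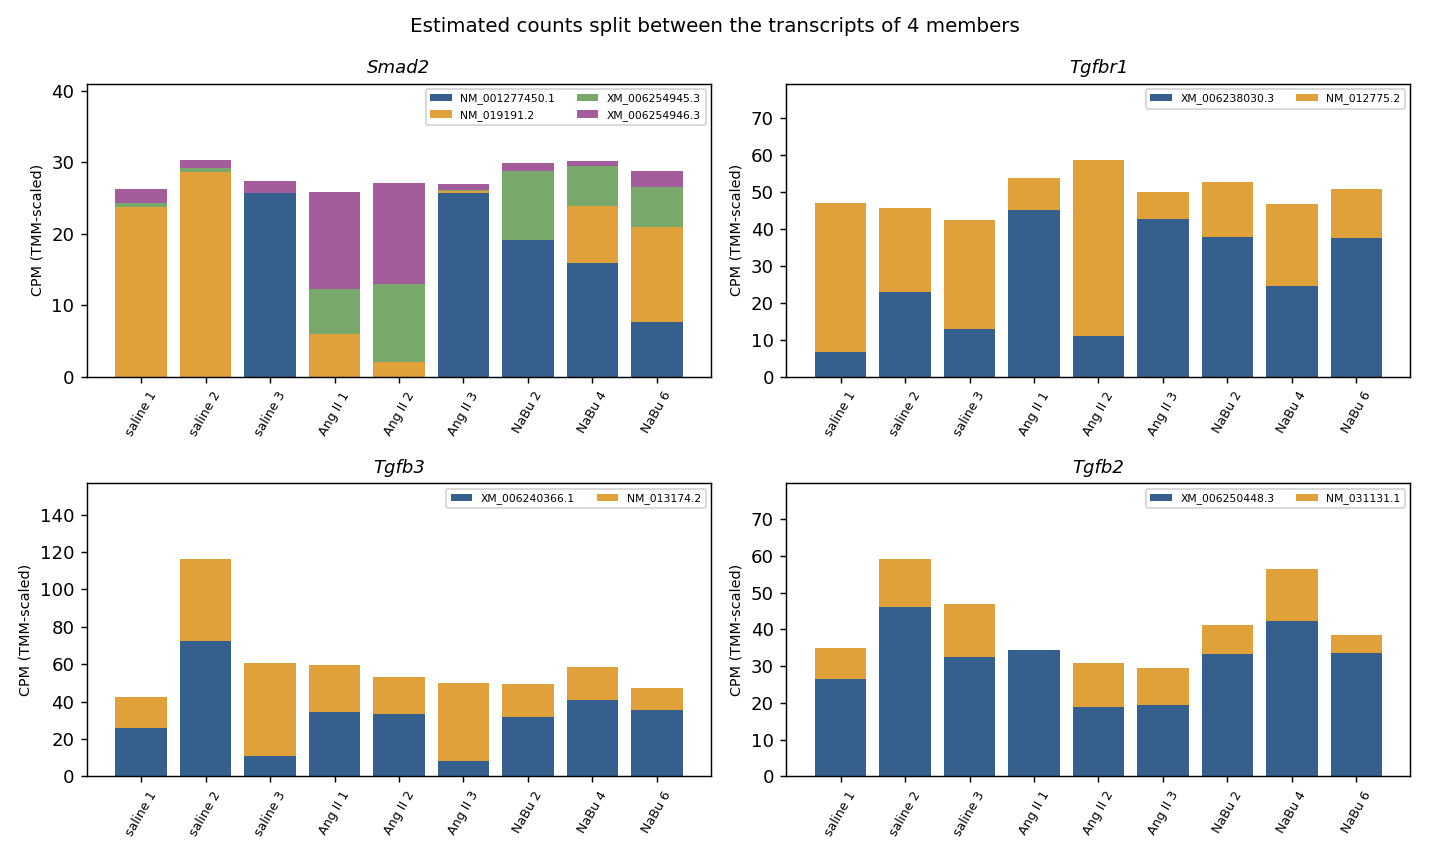
Estimated counts of Smad2, Tgfbr1, Tgfb3 and Tgfb2 in each library, in TMM-scaled CPM, stacked by transcript (colours). The height of the Smad2 bars is nearly the same in all 9 libraries, while the transcript that makes up the bar differs even between libraries of 1 group.

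The other genes of the pathway were described through 7 lists, by counts and medians beside those of all genes. They were chosen with earlier results of these data known, and the genes named below are the ends of each list with an unadjusted p under 0.05, plus all list genes called. In the comparisons of Ang II with saline and of NaBu with Ang II to Ang II alone, 0 list genes were called. With saline library 2 left out of the fit, 6 of the named list genes passed between NaBu with Ang II and Ang II: Acvrl1, Itgb8, Itgb3, Tab2, Pmepa1 and Junb (adjusted p from 0.019 to 0.0488). With saline library 3 left out, 4 of these passed, Acvrl1, Itgb8, Tab2 and Pmepa1 (0.0354 to 0.0488). Saline is in neither group of that comparison, and the count over all genes rose in the same fits. It was 248 with all libraries, 1482 without saline library 2 and 560 without saline library 3. Against saline, NaBu with Ang II had 2 list genes that rose and 4 that fell, of 92 with a mean of at least 1 CPM, where 3.01% of all genes rose and 2.05% fell. All 6 calls were lost with NaBu library 6 left out (adjusted p from 0.109 to 0.175). With each of the 9 libraries left out in turn, Usp15 was still called in 6 fits, Itgb8 in 3, Bmp10 in 2, Ltbp3 and Acvr1b in 1 each, and Fbn1 in 0 (smallest adjusted p 0.0532). Without saline library 2, Ltbp3, Fbn1, Bmp10 and Acvr1b had adjusted p-values of 0.095, 0.0606, 0.0537 and 0.117. Not called with all libraries, Itgav passed without saline library 2 (0.0446), Tab2 without saline library 3 (0.0192) and Acta2 without saline library 1 (0.04). Over all genes 434, 1303 and 412 were called in these fits, beside 782 with all libraries.

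The latency and activation list holds genes linked to the storage and release of TGF-beta. Itgb8, the beta subunit of an integrin that activates latent TGF-beta, was at 37.5, 39.1 and 35.1 CPM in saline, 35.9, 39.6 and 39.8 CPM in Ang II and 46.5, 64.4 and 55.5 CPM in NaBu with Ang II. Every NaBu library was above all 6 others, and Itgb8 rose by 0.57 against saline (log2, SE 0.121, adjusted p = 0.0323). Against Ang II its difference was 0.53 (adjusted p = 0.0566). Its partner Itgav was at 228, 213 and 227 CPM in NaBu with Ang II and at 160 to 190 CPM in the other 6 libraries, with a log2 difference from saline of 0.33 (adjusted p = 0.0633). Itgb3, another beta subunit that pairs with the product of Itgav, was at 15.4, 8.24 and 10.7 CPM in Ang II and 7.002, 5.66 and 4.95 CPM in NaBu with Ang II, a log2 difference of -0.97 (adjusted p = 0.0968). Itgb3 is also a platelet gene, and the platelet markers summed to 52.1, 16.7 and 52.9 CPM in the 3 Ang II libraries against 9.68 to 27.0 CPM in the others, with 0 to 2 of 9 markers at 0. Their part in the Itgb3 values was not tested.

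The list also holds genes of matrix proteins. Ltbp3, a latent TGF-beta binding protein, was at 59.9, 86.3 and 84.9 CPM in saline and 50.2, 55.4 and 49.8 CPM in NaBu with Ang II, and fell by 0.57 (log2, adjusted p = 0.0441). Fbn1, which encodes the fibrillin that anchors these binding proteins, was at 457, 505.5 and 568 CPM in saline and 363, 378 and 300 CPM in NaBu with Ang II, and fell by 0.56 (adjusted p = 0.0413). Ang II alone had 44.9 to 51.0 CPM of Ltbp3 and 296 to 365 CPM of Fbn1, also below every saline library, with adjusted p-values of 0.445 and 0.443. Ltbp2 was at 8.91, 18.7 and 64.2 CPM in saline, 3.43, 6.01 and 5.71 CPM in Ang II and 8.59, 20.4 and 14.1 CPM in NaBu with Ang II, so the Ang II libraries were the lowest 3 of the 9. Its log2 difference was -2.59 between Ang II and saline (adjusted p = 0.677) and 1.51 between NaBu with Ang II and Ang II (adjusted p = 0.19). Without saline library 3 the former was -1.45. Over the 18 genes of the list the median log2 difference was -0.21, 0.10 and -0.22 in the 3 comparisons. With single libraries left out, the first stayed between -0.26 and -0.09 and the last between -0.31 and -0.07. Without saline libraries 2 and 3, which left saline library 1 alone, they were -0.01 and 0.04.

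Among the related ligands Bmp10, a cardiac bone morphogenetic protein best known from the atrium, was at 0.42, 646 and 22.2 CPM in saline and between 0 and 0.69 CPM in all 6 other libraries. It fell between saline and NaBu with Ang II (adjusted p = 0.0376). Saline library 2 is the one with 5392 CPM of atrial markers. Without saline libraries 2 and 3, which left saline library 1 alone, the log2 difference of Bmp10 was -0.94. Inhba, the activin A subunit, was at 10.3, 14.1 and 13.4 CPM in saline and 7.80, 9.67 and 5.50 CPM in Ang II, a log2 difference of -0.72 (adjusted p = 0.74). Of the related receptors, Acvr1b, a type I activin receptor that also acts through SMAD2 and SMAD3, was at 23.9, 23.8 and 19.5 CPM in saline, 17.4, 21.04 and 19.2 CPM in Ang II and 15.8, 16.3 and 15.9 CPM in NaBu with Ang II. It fell by 0.49 between saline and NaBu with Ang II (log2, adjusted p = 0.0466). With RLE scaling its adjusted p was 0.0509. The 11 related ligands had medians of -0.30, 0.07 and -0.32 in the 3 comparisons, and the 8 related receptors -0.12, -0.13 and -0.31. All genes had -0.00, -0.02 and -0.05. Between Ang II and saline 10 ligands were lower and 1 higher, and without saline library 2 their median was -0.16. Between NaBu with Ang II and saline, 5 receptors had an unadjusted p under 0.05, where 24.6% of all genes did.

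Acvrl1 and Eng encode the endothelial receptor ALK1 and its co-receptor endoglin. Acvrl1 was at 95.3, 80.7 and 82.3 CPM in Ang II and 64.6, 59.6 and 63.7 CPM in NaBu with Ang II, a log2 difference of -0.46 (adjusted p = 0.0629). Eng was at 196, 248 and 222 CPM in saline, 193, 165 and 190 CPM in Ang II and 180, 145 and 160 CPM in NaBu with Ang II. Its log2 difference between Ang II and saline was -0.28 (adjusted p = 0.829). Taken as a sum, the 10 endothelial markers, none of them at 0, were lower with NaBu than in Ang II alone, as Acvrl1 was. Their sum was 2099 to 2384 CPM in Ang II and 1736 to 2037 CPM in NaBu with Ang II. Within saline the order was reversed. Saline library 2 had the highest sum (2313 CPM) and the lowest Acvrl1 (72.3 CPM), and saline library 3 the lowest sum (1995 CPM) and the highest Acvrl1 (88.9 CPM). The saline and Ang II sums overlapped, while Eng was lower in every Ang II library. The part of endothelial markers in the Acvrl1 and Eng values was not tested. Bmpr1a, a type I receptor for bone morphogenetic proteins, had a log2 difference of 0.36 between NaBu with Ang II and Ang II (adjusted p = 0.15), and Acvr2a, a type II activin receptor, of 0.25 between NaBu with Ang II and saline (adjusted p = 0.163).

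Among the partners in signal transduction Usp15, a deubiquitinase that acts on the type I receptor complex and on receptor SMADs, gave the smallest adjusted p of all list genes. It was at 76.5, 73.5 and 83.5 CPM in saline, 84.6, 80.5 and 88.3 CPM in Ang II and 111, 108 and 109 CPM in NaBu with Ang II. All NaBu libraries were above all 6 others, and it rose by 0.49 against saline (log2, SE 0.0867, adjusted p = 0.0207), beside 0.37 against Ang II (adjusted p = 0.0599). Tab2, an adaptor of the kinase TAK1 in the branch without SMADs, was at 142, 116 and 129 CPM in NaBu with Ang II and 80.9 to 110 CPM elsewhere, with log2 differences of 0.46 against Ang II (adjusted p = 0.0893) and 0.50 against saline (adjusted p = 0.0557). Smad1, a SMAD of the bone morphogenetic protein branch, was lower in all NaBu than in all other libraries, by -0.27 against Ang II (adjusted p = 0.117) and -0.22 against saline (adjusted p = 0.164). The list of 16 genes had medians of 0.04, 0.02 and 0.05 in the 3 comparisons, beside -0.00, -0.02 and -0.05 for all genes.

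Among the inhibitors Pmepa1, a target of the pathway that keeps SMAD2 and SMAD3 from the receptor, was at 5.64, 7.47 and 12.3 CPM in saline, 5.15, 4.50 and 3.74 CPM in Ang II and 8.34, 9.95 and 8.12 CPM in NaBu with Ang II. As with Tgfb2, the 3 Ang II libraries were the lowest of the 9. The log2 difference was -0.92 between Ang II and saline (SE 0.269, adjusted p = 0.74) and 0.98 between NaBu with Ang II and Ang II (SE 0.269, adjusted p = 0.083). DESeq2 called the latter (adjusted p = 0.0122), where it called 1515 of all genes, and without saline library 3 the former was -0.56. Tgif1, a corepressor of SMADs, had a log2 difference of -0.61 between NaBu with Ang II and Ang II (adjusted p = 0.158), and its libraries overlapped. The 14 inhibitors described had medians of -0.10, -0.00 and -0.05.

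The fibrosis genes that TGF-beta is known to induce were lower in Ang II than in saline for 17 of 19, with a median log2 difference of -0.55 beside -0.00 over all genes, and 0 of them passed the test. At an unadjusted p under 0.05, 11 of the 19 passed, where 5.94% of all genes did. Postn, which encodes the matricellular protein periostin, was at 13.2, 14.8 and 91.7 CPM in saline, 8.64, 9.87 and 9.52 CPM in Ang II and 11.4, 39.5 and 22.2 CPM in NaBu with Ang II. Its saline mean rests on library 3, and without that library its log2 difference moved from -2.09 to -0.58. The list median stayed between -0.76 and -0.37 with each of the 9 libraries left out in turn. It was -0.08 without saline libraries 2 and 3, the 2 highest in summed fibroblast markers, which left saline library 1 alone. Compared with saline, NaBu with Ang II had 18 of 19 lower, with a median of -0.38. That median stayed between -0.51 and -0.22 with single libraries left out, and was 0.14 against saline library 1 alone. The median of NaBu with Ang II against Ang II was 0.16, and 13 of 19 were higher. Acta2, smooth muscle actin, was at 58.9, 219 and 114 CPM in saline, 88.7, 100.4 and 83.4 CPM in Ang II and 78.3, 65.4 and 71.5 CPM in NaBu with Ang II, so saline spanned both other groups. Its log2 difference between NaBu with Ang II and saline was -0.87 (adjusted p = 0.167), and -0.26 without saline library 2. Junb, an immediate early target, was at 38.1, 33.7 and 36.5 CPM in Ang II and 26.4, 29.6 and 28.1 CPM in NaBu with Ang II, a log2 difference of -0.36 (adjusted p = 0.0778). The 6 targets of bone morphogenetic protein signalling had medians of -0.21, -0.16 and -0.29, and 0 were called. Without saline library 2 the first and the last were 0.025 and -0.065.

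**Figure D5:**
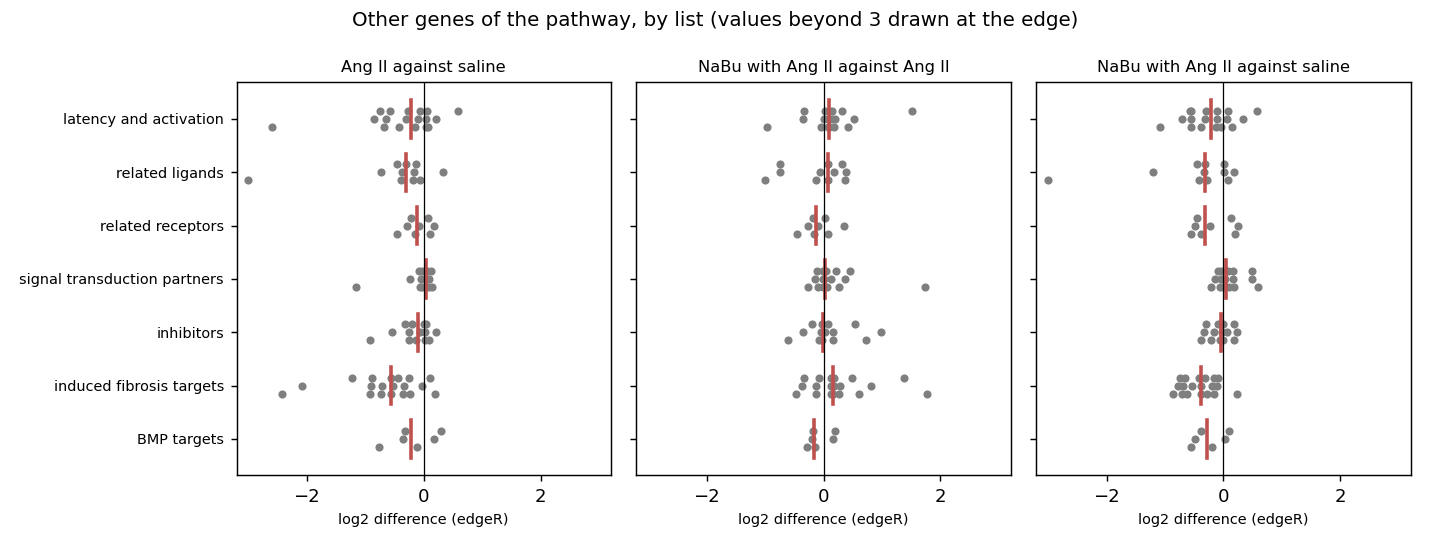
Log2 difference from edgeR of each pathway gene with a mean of at least 1 CPM (grey points) by list, with the list's median as a red bar and a black line at 0, in the 3 comparisons. Points beyond 3 in size are drawn at the edge, which applies to Bmp10. For Ang II against saline the fibrosis targets have the lowest median, -0.55.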

How the data were processed

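Left ventricle RNA was sequenced in 9 libraries, 3 per group, made with a TruSeq kit per the labels' protocols. Per the file headers, each group has its own deposited table, whose columns hold the estimated counts of the libraries and whose lines are transcripts. The saline table has a stray line-end character in its last deposited column, stripped on reading, and otherwise holds the same kind of deposited values. All values were whole numbers. Among low values, 4, 8, 12 and 16 were more frequent than their neighbours. What 1 fragment is worth in these counts was not tested, and values divided by 4 were also tried. Per the submitters' processing notes, Bowtie 0.12.2 and the mouse build mm8 were used, although the tables carry RefSeq IDs of rat transcripts. No source used here gives the counter, its use of strand or how it splits reads of near-identical sequences. Each table holds 1 group, so processing and group cannot be told apart. NaBu columns carry the numbers 2, 4 and 6.

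Transcripts were summed by gene name and fitted with edgeR 4.0.16 in R 4.3.3 (quasi-likelihood test, TMM factors from 0.887 to 1.14, filterByExpr, all 9 libraries, common biological coefficient of variation 0.256, prior count 0.125), leaving 15467 genes. A gene was called at a Benjamini-Hochberg adjusted p under 0.05, and adjusted p-values are from this fit unless DESeq2 1.42.0 is named. Library totals of 29284780 to 49865446 were multiplied by the TMM factors before CPM were taken. Ratios were compared with exact permutation tests. The test was tried on simulated counts. The members, lists, tests and alternatives were chosen with earlier results of these data known. All 10 members are described, with the 2 highest and 2 lowest genes of each list per comparison, narrowed after their values were seen to those with an unadjusted p under 0.05, plus every list gene called. Alternatives covered scaling, filtering, DESeq2, 2-group fits, values divided by 4, the highest transcript per gene, a replicate block and leaving out libraries. Promoter sequences are from RefSeq, build GRCr8.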

Additional observations from a re-analysis of the deposited data

How the results depend on the processing

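The count of 0 members called held in all 3 comparisons under each alternative run, except between NaBu with Ang II and saline, where DESeq2 and edgeR without saline library 3 each called 1, Smad7, so the range over left-out libraries was 0 to 1 there. For 0 transcripts the exception was 1 called by DESeq2 between NaBu with Ang II and Ang II. Of 580 member values under alternatives, 518 kept direction and side of the threshold and 60 changed sign.

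Over all genes, the count called between Ang II and saline (0) was 57 with DESeq2, 1 in a fit of the 2 groups, 3 with the highest transcript per gene, 11 without saline libraries 2 and 3, and 0 to 7 with single libraries left out. Between NaBu with Ang II and Ang II (248) it was 4 with total counts only, 1515 with DESeq2, 1802 in a fit of the 2 groups, 5 with the highest transcript, 1695 without those 2 saline libraries, and 1 (without Ang II library 1) to 1482 (without saline library 2). Between NaBu with Ang II and saline (782) it was 412, 1990, 9, 21 and 109 in the same order, and 6 (without NaBu library 6) to 1303 (without saline library 3). The causes were not tested.

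For Ang II against saline the log2 difference turned for Tgfbr2 to 0.042 with total counts and for Smad3 to 0.15 with the highest transcript. Without saline libraries 2 and 3 it turned to 0.34 for Tgfb3, 0.039 for Tgfbr2, 0.057 for Tgfbr3, 0.014 for Smad2, 0.052 for Smad3 and 0.093 for Bmp10. For NaBu with Ang II against Ang II it turned for Tgfbr2 to -0.023 with upper-quartile scaling and to -0.096 with total counts, which also gave -0.058 for Smad3 and -0.016 for Smad4. That scaling moved the median of all genes to -0.13, from -0.02. The highest transcript gave 0.47 for Tgfb3, -0.011 for Tgfbr2, -0.052 for Smad3, 0.050 for Smad7 and 0.18 for Smad1.

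For NaBu with Ang II against saline Tgfbr2 turned to 0.0095 with RLE scaling, 0.0097 with DESeq2, 0.0085 with values divided by 4 and 0.0037 in a fit of the 2 groups. Smad3 turned to -0.031 with upper-quartile scaling and -0.076 with total counts. The highest transcript gave 0.045 for Tgfb2, 0.028 for Ltbp3 and 0.079 for Smad1. Without saline libraries 2 and 3 it was 0.051 for Tgfb1, 0.36 for Tgfb2, 0.26 for Tgfb3, 0.054 for Tgfbr2, 0.042 for Tgfbr3 and 0.28 for Acta2. Of the list genes called there, Itgb8, Fbn1, Acvr1b and Ltbp3 were not called with total counts only (adjusted p 0.105, 0.0506, 0.0973 and 0.0761), and all 6 lost the call in a fit of the 2 groups (adjusted p 0.0736 to 0.104) and without NaBu library 6 (0.109 to 0.175).

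With single libraries left out, values changed sign for Ang II against saline in Tgfb1 (-0.018 to 0.10), Tgfb3 (-0.70 to 0.056), Tgfbr2 (-0.064 to 0.048), Tgfbr3 (-0.23 to 0.063), Smad3 (-0.16 to 0.14) and Smad4 (-0.019 to 0.053). For NaBu with Ang II against Ang II they did in Tgfb1 (-0.24 to 0.028), Tgfbr2 (-0.0015 to 0.087), Tgfbr3 (-0.045 to 0.022) and Smad7 (-0.11 to 0.0034), and against saline in Tgfb1 (-0.19 to 0.061), Tgfb2 (-0.26 to 0.14), Tgfbr2 (-0.035 to 0.063), Tgfbr3 (-0.24 to 0.065) and Smad3 (-0.11 to 0.20). The replicate block, possible for saline and Ang II only, called 0 members and 0 genes. Libraries with the same number did not deviate together (r of -0.05, -0.06 and -0.01), so no pairing by number was seen. With 3 libraries per group such correlations cannot exclude a pairing.

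With 3 libraries per group, a difference such as the -0.57 of Tgfb2 had a 95% interval from -1.01 to -0.14, and p-values cannot separate animals from technical repeats.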
